A study of Homo sapiens with 20 samples.

Results

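The genes described here are the plasminogen activators PLAU and PLAT, the receptor PLAUR, the serine protease inhibitor SERPINE2, the matrix metalloproteinases MMP2 and MMP14, and the inhibitors TIMP1, TIMP2 and TIMP3. They were followed in H1-derived human neural progenitor cells that were turned towards neurons. The 9 genes were taken from a catalogue of 20237 coding gene records, within 38369 records in all, and each of the 9 symbols matched exactly 1 coding record. The set was selected on measured values, since PLAU had 1 of the largest decreases between the first and the last day. The levels are therefore given as a description and carry no test.

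Polyadenylated RNA of 20 samples from 1 established embryonic stem cell line, H1, was sequenced on 7 days, with 3 replicates on each of days 0, 1, 2, 4, 11 and 18 and 2 on day 5. Day 0 cells were progenitors kept on diluted Matrigel, a basement membrane extract, in a medium with FGF, which keeps progenitors dividing. All later groups had FGF withdrawn and BDNF, a neurotrophic factor, added. Their medium also differed in its base, Neurobasal alone in place of a mix with DMEM/F12. It lacked the N2 supplement and held more of the B27 supplement without vitamin A, which both media contained. These changes came together and cannot be told apart. Cells of days 5, 11 and 18 had been replated at day 4 onto poly-D-lysine and laminin, so the step from day 4 to day 5 includes a change of surface.

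For each record and day there is 1 FPKM value (a count of fragments made relative to transcript length and to the mapped fragments of the library), estimated from all samples of that day together. No spread between samples, number of reads or depth can be given for a value, and no difference below was tested. Values said to be in day order are the 7 daily values from the first day to the last. A change is given as the difference in log2(FPKM + 0.1), later minus earlier, which understates the change of genes with low levels. A change is said to be past 2-fold when this difference is at least 1 in size, and the members' counts are set beside the share of 11793 coding records, those whose FPKM averaged 1 or more over the days, that passed it in the same direction. Of the 9 genes, 8 reached that mean, and MMP14, with a mean of 0.272, did not. The FPKM of all records summed to between 251156 (day 18) and 413978 (day 0). Over the 14443 records of any kind that reached a mean of 1, the median change was -0.09, 0.04, 0.00, -0.07, -0.15 and -0.28 over the 6 successive steps, and -0.56 from day 0 to day 18. Changes relative to that median are given where it matters.

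Plasminogen activators are secreted serine proteases that cut plasminogen into plasmin, a broad protease that degrades fibrin and matrix proteins. The urokinase type, PLAU, works at the cell surface bound to its receptor, and the tissue type, PLAT, is also made by neurons. Serpins trap these enzymes in inactive complexes. Matrix metalloproteinases are zinc enzymes that cut collagens and other matrix proteins, and most can be blocked by a TIMP bound in its active site. In the developing nervous system these enzymes are known for roles in cell migration and the outgrowth of neurites.

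Sequence upstream of PLAU, PLAUR and TIMP1 is shown for reference, because among the genes with a RefSeq promoter window these 3 had the lowest changes over the first day (-1.84, -1.93 and -0.98). Windows from 250 bases before to 50 bases after the start were in the RefSeq table (GRCh38.p14) for 6 of the 9 genes, and all 8 windows matched GRCh37 (hg19), the build of the files, exactly once. PLAT, MMP2 and TIMP2 have no entry. The stretches below end 20 bases past the first base of the deposited record, and run 5′ to 3′ on the strand of the gene. Capitals mark matches, on either strand, to the AP-1 motif TGANTCA or to the GC box GGGCGG.
PLAU, chr10:75670640-75670881, plus strand: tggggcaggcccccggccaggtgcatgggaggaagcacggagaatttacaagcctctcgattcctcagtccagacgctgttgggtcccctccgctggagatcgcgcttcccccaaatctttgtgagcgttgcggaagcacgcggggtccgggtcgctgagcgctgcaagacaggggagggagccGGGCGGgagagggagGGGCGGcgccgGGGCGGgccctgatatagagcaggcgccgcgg
PLAUR, chr19:44174483-44174571, minus strand: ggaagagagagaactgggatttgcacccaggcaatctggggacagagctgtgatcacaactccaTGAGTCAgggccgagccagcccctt
TIMP1, chrX:47441585-47441709, plus strand: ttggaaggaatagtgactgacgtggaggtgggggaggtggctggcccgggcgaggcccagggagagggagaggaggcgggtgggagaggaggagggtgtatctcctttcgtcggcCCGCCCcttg

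The PLAU stretch holds 3 GC boxes close to the start of transcription. GC boxes were not particular to the genes printed here. The windows of SERPINE2 and MMP14 also hold them, and that of TIMP3 holds 5, with a first-day change of 0.38. The PLAUR window has no GC box and 1 AP-1 match, TGAGTCA, which begins at position -186 from its RefSeq start. That start lies 181 bases downstream of the first base of the deposited record, so the match runs across the first base of that record. AP-1 is a pair of FOS and JUN family proteins and the GC box is bound by SP1. Of 35116 RefSeq windows of the same length, 7.71% hold TGANTCA and 45.0% hold GGGCGG. Motifs for ETS factors (CCGGAA, in 17.2% of windows), TEAD factors (GGAATG, 14.0%) and the TATA box (TATAAA, 11.5%) had no match in the windows of PLAU, PLAUR, SERPINE2, TIMP1 and TIMP3, while that of MMP14 held 1 CCGGAA. A match describes letters and is no evidence of binding, and these windows hold only the sequence next to the start.

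PLAU is the urokinase-type activator, and its record lies on chromosome 10 from 75670862 to 75677256, plus strand. Its FPKM values were 57.2, 15.9, 12.3, 3.62, 3.24, 0.438 and 0.404 in day order. It was lower on every successive day, and the day 18 value was 142-fold below that of day 0. Its change was -6.83 on the log2(FPKM + 0.1) scale, 3 of the 11793 coding records had a lower one, and this is the contrast for which PLAU was chosen. Most of the decrease lay in 3 steps: -1.84 over the first day, -1.74 between days 2 and 4, and -2.63 between days 5 and 11. Per day elapsed, these came to -1.84, -0.87 and -0.44, so of these the first day after FGF withdrawal had the steepest daily rate. At the day 2 to day 4 step, 8 coding records had a lower change. Little change was seen across the replating (-0.16) or after day 11 (-0.09).

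PLAUR, the membrane-anchored receptor that holds urokinase at the cell surface (chromosome 19, 44150248 to 44174502, minus strand), had 10.1, 2.60, 2.34, 1.56, 1.38, 0.426 and 0.237 in day order. Like its ligand, it was lower on each later day, 42.8-fold in all. The first step brought a log2 change of -1.93, close to that of PLAU, and 37 of the 11793 coding records were below it. From day 2 to day 4 the changes of the pair differed, with -0.55 for PLAUR against -1.74 for PLAU, and their levels came closer. The FPKM ratio of PLAU to PLAUR on the same day, which does not depend on how the days were scaled, was between 5.28 and 6.11 on days 0 to 2, then 2.32, 2.35, 1.03 and 1.70 on days 4, 5, 11 and 18.

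PLAT, the tissue-type activator (chromosome 8, 42032236 to 42065194, minus strand), had 17.05, 10.3, 11.0, 9.77, 15.2, 5.91 and 4.32 in day order. It was high on days 0 and 5 and lowest at day 18, a 3.95-fold difference from day 0. The 2 activators changed places in level: on days 0, 2, 4 and 18 the ratio of PLAU to PLAT was 3.35, 1.12, 0.370 and 0.0935. Across the replating PLAT had a log2 change of 0.63, and only 173 of the 11793 coding records were above it.

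SERPINE2, also called protease nexin-1, inhibits urokinase, tissue-type activator and thrombin. Its record (chromosome 2, 224839765 to 224904036, minus strand) had 27.7, 22.9, 30.5, 14.6, 15.3, 9.44 and 14.3 in day order. The pattern was not a steady decrease: day 2 was the highest and day 11 the lowest, and the day 18 value was 1.52-fold above that of day 11. At that last step the log2 change of 0.60 was exceeded by 312 coding records, and at the step from day 2 to day 4 the change of -1.05 was undercut by 65. From day 0 to day 18 the change was -0.95, or -0.39 relative to the median. The FPKM ratio of PLAU to SERPINE2 was 2.06, 0.692, 0.247 and 0.0281 on days 0, 1, 4 and 18. That of PLAT to SERPINE2 moved within a narrower range, from 0.301 at day 18 to 0.995 at day 5. Urokinase transcript thus exceeded that of this inhibitor at day 0 alone, and PLAT transcript did so on no day.

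**Figure D1:**
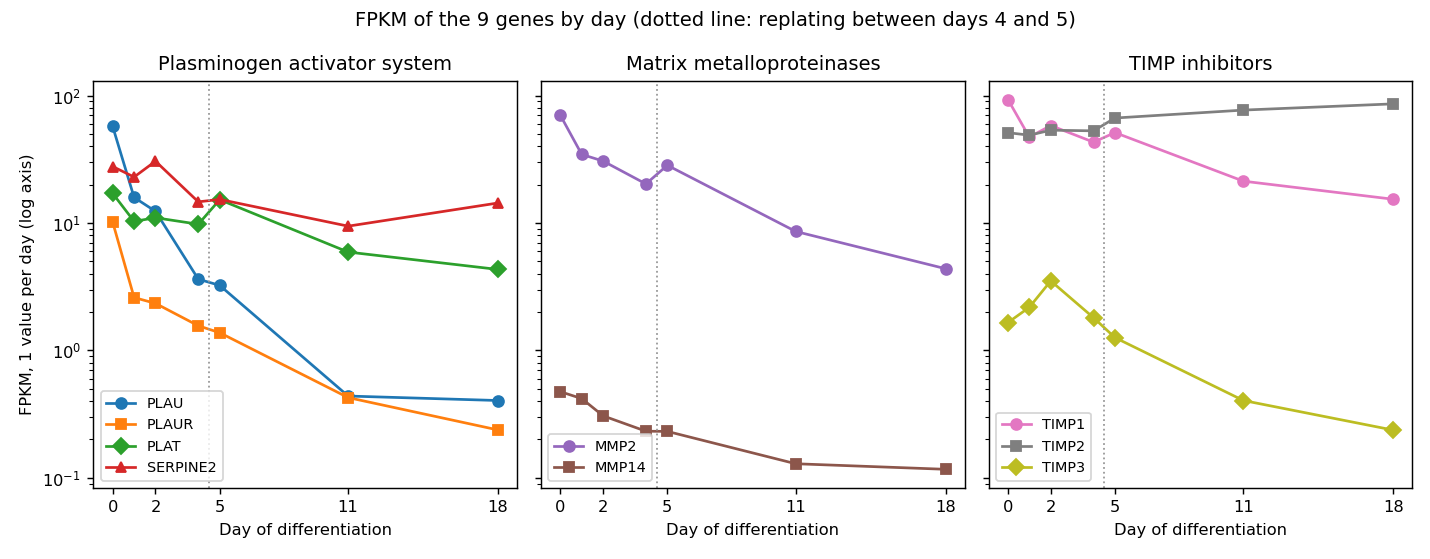
FPKM (log axis, 1 pooled value per day and hence no error bars) of the 9 genes against the day of differentiation, in panels for the plasminogen activator system, the metalloproteinases and the TIMPs. PLAU and PLAUR are lower on each later day and meet near 0.43 at day 11, PLAT and MMP2 have a second high value at day 5, and TIMP2 is the gene whose value at day 18 lies above that at day 0.

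MMP2, also known as gelatinase A, degrades denatured collagens and basement membrane collagen. Its record (chromosome 16, 55513081 to 55540584, plus strand) had 70.1, 34.5, 30.6, 20.2, 28.4, 8.57 and 4.37 in day order. Day 0 was highest and day 18 lowest, 16.0-fold apart, with a second high at day 5. The log2 change was -1.02 over the first day, 0.48 across the replating, -1.71 between days 5 and 11, and -0.96 thereafter. At the replating step 341 coding records had a higher change.

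MMP14, the membrane-type enzyme that activates the MMP2 proenzyme, had low values throughout (chromosome 14, 23305793 to 23316802, plus strand). They were 0.474, 0.418, 0.306, 0.232, 0.231, 0.129 and 0.116 in day order. The values lie in descending order by day, a 4.07-fold range, but with no depth known their precision cannot be given. MMP2 exceeded MMP14 on every day, by a factor of 148 at day 0 and 37.6 at day 18. Of the other membrane-type metalloproteinases in the protease list, MMP15 had 14.7 at day 0 and 36.9 at day 18, MMP16 had 6.52 and 5.44, MMP17 had 1.53 and 3.82, and MMP24 had 1.14 and 10.3. These were above MMP14 on both days, whereas MMP25 was below it on both, with 0.313 and 0.0158.

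TIMP1, a secreted inhibitor of most metalloproteinases (chromosome X, 47441690 to 47446189, plus strand), had the highest level of the 9 genes at day 0. Its FPKM was 93.1, 47.2, 58.2, 43.1, 51.2, 21.3 and 15.4 in day order. After the first day it stayed between 43.1 and 58.2 until day 5, and both later days were below that range. The changes of -0.98 over the first day and -1.26 between days 5 and 11 made up most of the -2.59 over the whole course.

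TIMP2 inhibits metalloproteinases and also links the MMP2 proenzyme to MMP14 at the membrane. Its values (chromosome 17, 76849063 to 76921472, minus strand) were 51.1, 48.9, 53.5, 52.9, 66.6, 76.9 and 86.1 in day order. They lay within 48.9 to 53.5 up to day 4 and were higher on each later day. The log2 change from day 0 to day 18 was 0.75 as deposited, below 2-fold, and 1.31 relative to the median, past it. TIMP2 was higher at day 18 than at day 0 whereas the other 8 genes were lower.

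TIMP3, which stays bound to the extracellular matrix (chromosome 22, 33196802 to 33259027, plus strand), had 1.65, 2.18, 3.51, 1.80, 1.26, 0.404 and 0.237 in day order. It went up before it went down, with its highest value at day 2, 14.8-fold above day 18. From day 1 to day 2 its log2 change of 0.66 was exceeded by 100 of the 11793 coding records, while from day 2 to day 4 its change of -0.92 was undercut by 105.

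The make-up of the TIMP transcripts shifted with time. On days 0, 1, 5, 11 and 18 TIMP1 held 63.8%, 48.0%, 43.0%, 21.6% and 15.1% of the summed FPKM of the 3 TIMPs. TIMP2 held 35.0%, 49.7%, 55.9%, 78.0% and 84.7% on the same days, and TIMP3 never more than 3.05% (day 2). The sum itself was 146 at day 0 and between 97.7 and 119 afterwards. The ratio of MMP2 to TIMP2, enzyme to inhibitor, was 1.37, 0.707, 0.572, 0.383, 0.426, 0.111 and 0.0508 in day order.

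**Figure D2:**
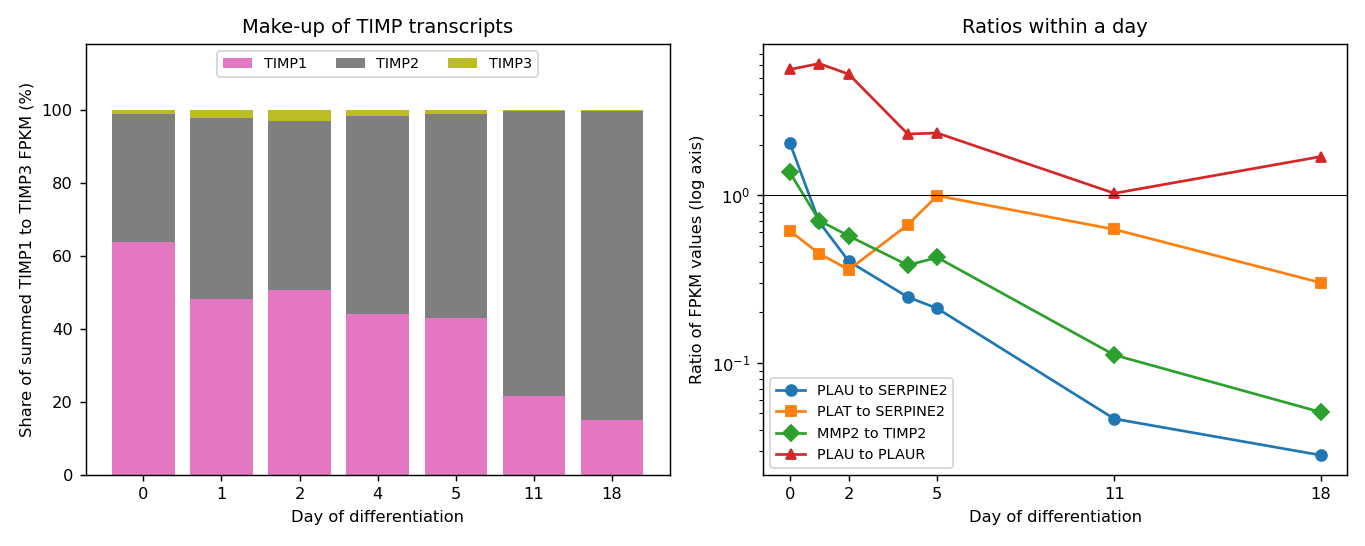
Left, share (%) of TIMP1, TIMP2 and TIMP3 in their summed FPKM for each of the 7 days, as stacked bars from 0. Right, ratio of FPKM values of 2 genes on the same day (log axis, line at 1) against the day. The TIMP1 share went from 63.8% to 15.1%, and the ratios PLAU to SERPINE2 and MMP2 to TIMP2 went from above 1 at day 0 to 0.0281 and 0.0508 at day 18.

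In order of level, day 0 ran TIMP1, MMP2, PLAU, TIMP2, SERPINE2, PLAT, PLAUR, TIMP3 and MMP14. Day 18 ran TIMP2, TIMP1, SERPINE2, MMP2, PLAT, PLAU, PLAUR, TIMP3 and MMP14. Neighbours at day 18 were close, such as TIMP1 at 15.4 and SERPINE2 at 14.3, MMP2 at 4.37 and PLAT at 4.32, or PLAUR and TIMP3, which were both at 0.237, and with 1 value per day their order cannot be set against a spread.

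The steps were then compared by the number of genes past 2-fold. They are parts of the change from day 0 to day 18 on which the set was chosen, so these counts are descriptions only. Over the first day, 3 of the 9 genes were lower by 2-fold or more (PLAU, PLAUR and MMP2, the last with -0.93 relative to the median and so short of 2-fold there), where 3.09% of coding records were. None of the 9 was higher by 2-fold, against 3.60% of coding records. With the median subtracted, these background shares were 2.21% and 4.51%. From day 1 to day 2 no member passed in either direction, and 0.144% of coding records were lower and 0.136% higher.

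From day 2 to day 4, PLAU and SERPINE2 were lower by 2-fold or more, 2 of 9 genes against 0.653% of coding records, and none was higher against 0.127%. Across the replating, from day 4 to day 5, no member passed, and few coding records did, 0.0509% lower and 0.254% higher. PLAT, MMP2, TIMP2, TIMP1 and SERPINE2 were above their day 4 value, by 0.63, 0.48, 0.33, 0.25 and 0.06 on the log2 scale, whereas PLAU, PLAUR and TIMP3 were below it, by -0.16, -0.17 and -0.49. MMP14 was near 0 (-0.003 as deposited and 0.07 relative to the median).

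Between days 5 and 11, 6 of the 9 genes were lower by 2-fold or more, namely PLAU, PLAUR, PLAT, MMP2, TIMP1 and TIMP3, with changes from -1.26 (TIMP1) to -2.63 (PLAU), where 4.24% of coding records were. None was higher by 2-fold, against 1.80%. Relative to the median, the same 6 genes passed, against 3.11% of coding records lower and 2.61% higher. With a pseudocount of 1 in place of 0.1, 4 genes passed, as PLAUR (-0.74) and TIMP3 (-0.69) were then short of 2-fold. This step spans 6 days. From day 11 to day 18 no gene of the set passed, against 3.72% of coding records lower and 0.839% higher (1.40% and 1.83% relative to the median), and SERPINE2 (0.60) and TIMP2 (0.16) had values above day 11. PLAU was at -0.09 there and at 0.18 relative to the median, so its direction at the last step depended on the scaling.

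Over the whole course, 7 of the 9 genes were lower by 2-fold or more at day 18 than at day 0, SERPINE2 and TIMP2 being the other two, and 29.9% of coding records were lower. None was higher, against 7.57%. Since the set was chosen on this contrast, nothing is read from these shares. The same holds for the counts at single steps that include PLAU, since the steps are parts of this contrast. Relative to the median, 6 were lower, MMP14 no longer being among them (-0.85), and TIMP2 was higher, where 12.8% of coding records were lower and 13.9% higher.

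**Figure D3:**
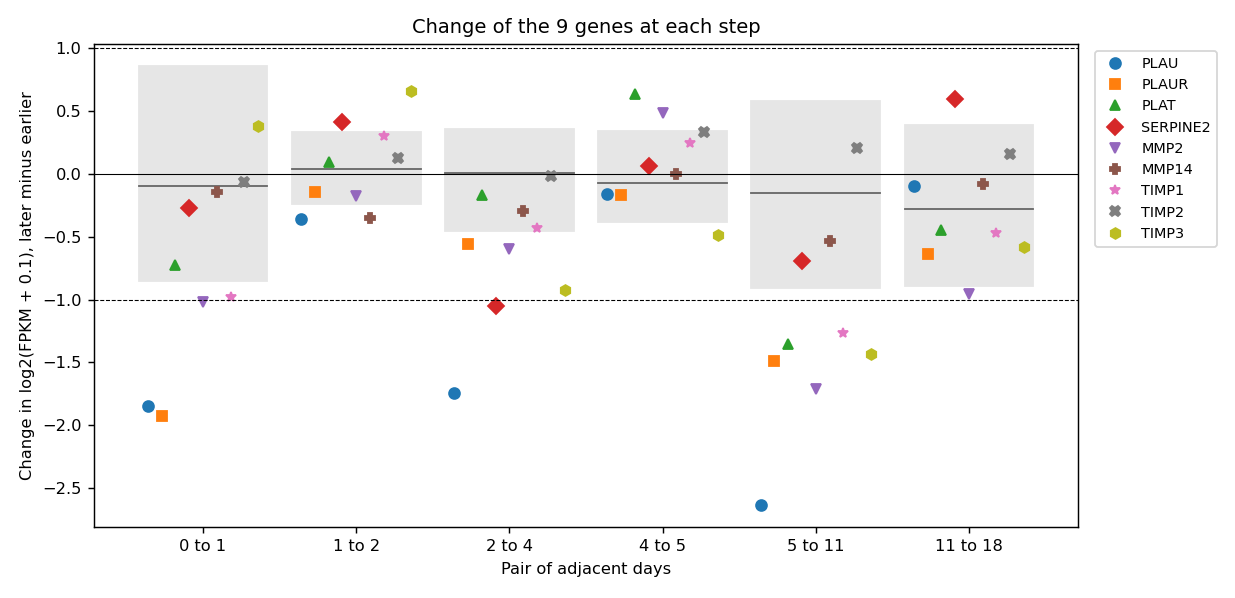
Change in log2(FPKM + 0.1) of the 9 genes (symbols) at each of the 6 pairs of adjacent days. Grey boxes span the 5th to 95th percentile of 11793 coding records, the grey line is the median of 14443 records, and dashed lines mark 2-fold. PLAU lies below -1.7 at 3 steps, and 6 genes lie below -1 from day 5 to day 11.

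Other genes of the pathway, in lists of proteases, inhibitors, receptors with cofactors, and substrates, are described for those with a mean FPKM of at least 1, by the change from day 0 to day 18. Over all coding records of that mean the median change was -0.60, and 29.9% were lower and 7.57% higher by 2-fold or more (12.8% and 13.9% relative to the median). The counts of each list below are to be read against those shares. Plasminogen itself, PLG, the substrate of the activators, was at 0.0516 or below on every day. SERPINF2, the main plasmin inhibitor of blood, was at 0.0520 or below.

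Among the proteases outside the 9 genes, 4 of 17 were lower by 2-fold or more, where 29.9% of coding records were. Another 3 were higher, against 7.57%, and the median change was -0.56. The lower ones were MMP10, a stromelysin, from 3.42 to 0.102, the sheddase ADAM9 from 68.1 to 20.6, ADAMTS1 from 5.34 to 1.31 and BMP1, the procollagen C-proteinase, with a change of -1.43. MMP10 was at 1.79 or below on every later day. It reached the mean of 1 only through its day 0 value, which limits what its place among the lower genes can show. The higher ones were the membrane-type MMP24 (log2 change 3.07), MMP15 (1.32) and MMP17 (1.27). Relative to the median, BMP1 was at -0.87, short of 2-fold. MMP10, ADAM9 and ADAMTS1 still passed there, against 12.8% of coding records. How the share of lower proteases compared with that of coding records thus depended on the scaling.

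Of the other genes in the inhibitor list, 7 of 8 were lower by 2-fold or more and 1 was higher, with a median change of -2.39. TFPI2, which inhibits plasmin and other serine proteases, went from 160 to 1.88, and A2M, a broad protease trap, from 472 to 6.15. TIMP4 went from 3.08 to 0.326, RECK, a membrane-anchored metalloproteinase inhibitor, from 6.49 to 1.70, the cysteine protease inhibitor CST3 from 76.0 to 23.8, and the collagen chaperone SERPINH1, which inhibits no protease, from 225 to 29.9. SERPINF1, likewise a serpin that inhibits no protease, had 1.62 at day 0, 6.17 at day 1 and 0.662 at day 18. Its change from day 0 to day 18 was -1.18, or -0.62 relative to the median. The one that was higher was SERPINI1, or neuroserpin, a neuronal inhibitor of tissue-type activator, from 1.05 to 3.32 (log2 change 1.57).

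Among receptors and cofactors outside the set, 5 of 7 were lower by 2-fold or more and none was higher, with a median of -1.16. ANXA2 and S100A10, whose proteins form a complex that binds plasminogen and PLAT, went from 476 to 45.2 and from 7.01 to 0.880. ITGAV, an integrin subunit that binds vitronectin, went from 35.0 to 6.22. IGF2R and BSG had changes of -1.15 and -1.16 as deposited but -0.59 and -0.60 relative to the median. LRP1, the endocytic receptor that clears activator and serpin complexes, had 26.8 at day 0, 48.9 at day 1 and 39.2 at day 18, a log2 difference of 0.55, or 1.11 once the median is subtracted. PLGRKT has no record under that symbol.

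Of the 9 substrates of that mean, 7 were lower and 2 higher. Those that were lower by 2-fold or more were fibronectin (FN1, 77.4 to 12.7), the basement membrane genes COL4A1 (108 to 11.2), COL4A2 (150 to 21.3), LAMC1 (129 to 7.10) and HSPG2 (16.3 to 2.61), the matrix gene TNC (70.8 to 14.3), and versican, VCAN (88.0 to 29.8). The other two were higher: neurocan, NCAN, from 4.22 to 55.0, and brevican, BCAN, from 0.0614 to 6.96, both chondroitin sulfate proteoglycans of brain matrix, as versican is too. The median over the list was -2.59. BCAN was at 0.952 or below on every day up to day 11. It thus reached the mean of 1 only through its day 18 value, which limits what its place among the higher genes can show.

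**Figure D4:**
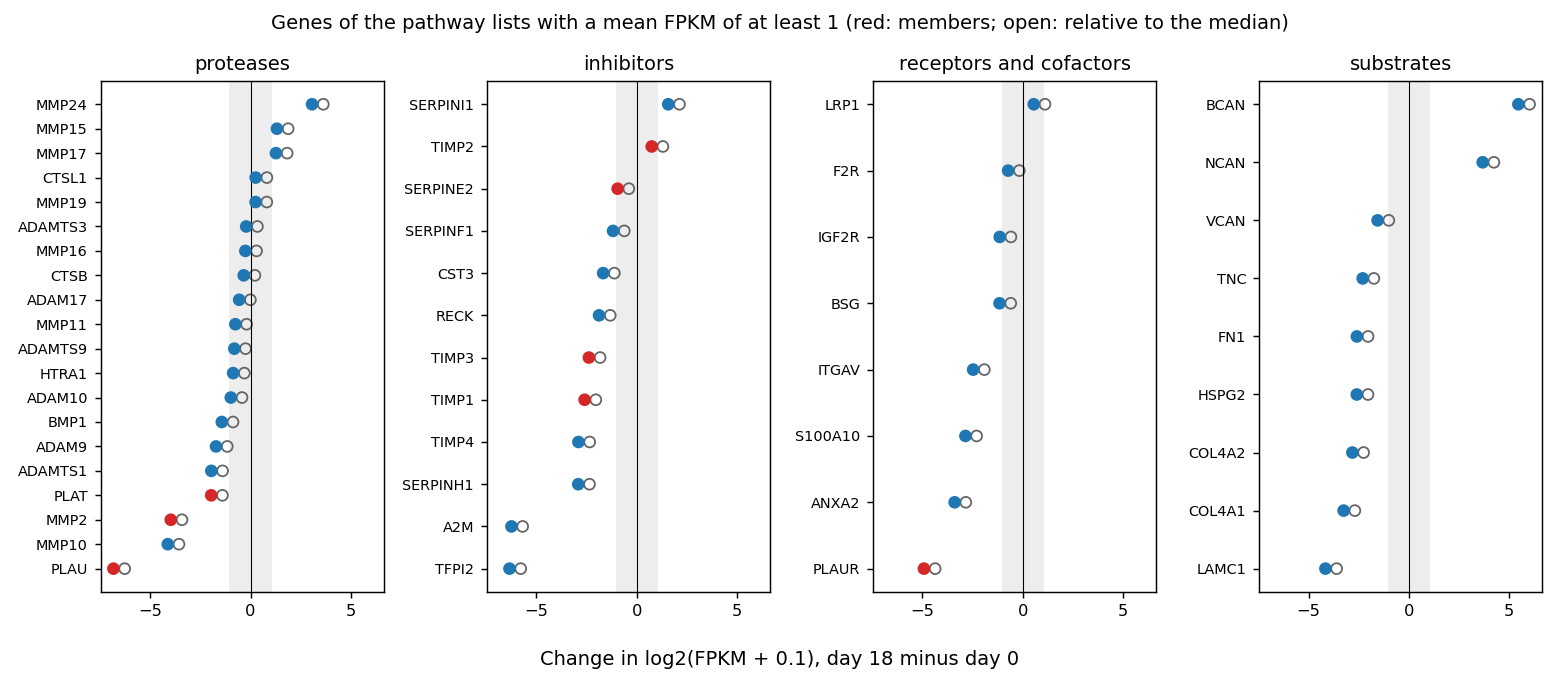
Change in log2(FPKM + 0.1), day 18 minus day 0, of the genes with a mean FPKM of at least 1 in the 4 pathway lists; filled points are as deposited (red for genes of the set, blue for others), open points are relative to the median of all records, and the grey band spans less than 2-fold. PLAU is the lowest protease at -6.83, inhibitors lie mostly to the left, and MMP24, SERPINI1, NCAN and BCAN lie to the right.

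In likeness of pattern, the 5 coding records nearest to PLAU, by Euclidean distance between changes from day 0 over the 6 later days, were TLR4 (distance 1.51), TFPI2 (1.97), FLI1 (2.01), ICAM1 (2.10) and BGN (2.18), out of 11792. The changes of TLR4 and ICAM1 from day 0 to day 18 were -6.13 and -5.33. For PLAUR they were LOXL2 (0.586) and RUNX2 (0.719), for MMP2 they were SLC35F2 (0.504) and GNG11 (0.541), and for TIMP1 they were ITGAV (0.306), followed by ECE1. Nearest to PLAT were CD63 (0.558) and BAX (0.576), to SERPINE2 MAFF (0.369) and PVR (0.552), and to MMP14 IGFBP2 (0.276) and SRF (0.302). The MMP14 distances depend on the 0.1 added before the logarithm, which weighs on its low values. With 0.01 in its place, the MMP14 change from day 0 to day 18 was -1.94 rather than -1.41. TIMP2 had HCFC2 (0.155) and TP53INP2 (0.164), and TIMP3 had PMAIP1 (0.593) and DSG2 (0.654). All these distances share the same 7 daily values and are descriptions over days. The records compared were those with a mean FPKM of at least 1. TLR4, FLI1, BGN and SLC35F2 reached that mean only through their day 0 values. Their likeness in a decrease from day 0 thus rests in part on the filter.

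Markers of cell types moved over the same days. All 7 neuronal markers were higher at day 18, their FPKM summing to 191 at day 0 and 1241 at day 18, and of the 7 neural progenitor markers 2 were higher, 1 lower and 4 within 2-fold. Of 12 mesenchymal markers 7 had a mean of at least 1, of which 6 were lower by 2-fold or more; their list summed to 665, 384, 423, 260, 302, 110 and 58.2 in day order. Among them TAGLN went from 367 to 19.4, COL3A1 from 238 to 30.5 and POSTN from 12.5 to 0.229, while DCN did not exceed 0.108 and PRRX1 0.224. PDGFRB, 1 of the 6, had 2.99 at day 0 and 0.887 or below afterwards. It reached that mean only through its day 0 value, which limits what its place among the lower markers can show. COL1A1 is listed at 0 on every day, which can be a failed estimate. Of 5 endothelial markers with a record KDR (23.8 to 0.700) reached that mean and was lower. The other 4 had lower means: CDH5 went from 2.34 to 0.0250 and TEK from 2.50 to 0.102, CLDN5 had 0.259 and 0.135, and VWF stayed at 0.0763 or below. The myeloid list summed to 4.19 or less on every day, with PTPRC, SPI1, ITGAM and TYROBP at 0.0386 or below, and its CSF1R record is merged with PDGFRB. In bulk RNA, fewer cells of a type and less RNA per cell cannot be told apart, and the part of these markers in the changes of the 9 genes was not tested. Of the astroglial markers, SLC1A3 went from 16.2 to 63.1 and S100B from 8.68 to 4.25. The others in that list were low on every day, GFAP at 0.186 or below, AQP4 at 0.342 or below and ALDH1L1 at 0.0364 or below. Of the pluripotency markers DPPA4 (9.72 to 2.25) and DNMT3B (20.1 to 6.90) were expressed. NANOG did not exceed 0.0207 and POU5F1 0.108, and TDGF1 is listed at 0 on every day.

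The position of the genes bears on their values, because the sources do not state that reads were counted by strand. All 9 records share exon bases with at least 1 record on the other strand. A single such record covered from 8.71% (1 of those over MMP14) to 72.6% (TIMP3) of the exon bases of the gene. Another record covered 48.5% of the exon bases of MMP14. Of these 12 opposite records, 9 stayed below 0.6 FPKM on every day. The largest was a record named linc-MMP2-AS, which covers 26.4% of the MMP2 exon bases and had 16.0, 7.43, 3.76, 6.50, 5.87, 1.68 and 1.14 in day order, against 70.1 and 4.37 for MMP2 at the first and the last day. The record linc-TIMP2-AS, over 65.6% of the TIMP2 exon bases, had 1.51 at day 0 and 1.45 at day 18. C10orf55 shares 28.8% of the PLAU exon bases and went from 0.388 to 0.0228. Which strand such reads came from cannot be told apart here, so the values of MMP2 and linc-MMP2-AS in particular are uncertain.

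TIMP1 and TIMP3 lie inside introns of the synapsin genes SYN1 and SYN3, which code for synaptic vesicle proteins and run on the other strand. They share 0 exon bases with them. SYN1 had 1.30, 1.83, 2.33, 2.19, 3.57, 6.40 and 10.1 in day order, and SYN3 went from 0.0247 to 0.357. In both nested pairs the host had its highest value at day 18 and the TIMP its lowest.

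**Figure D5:**
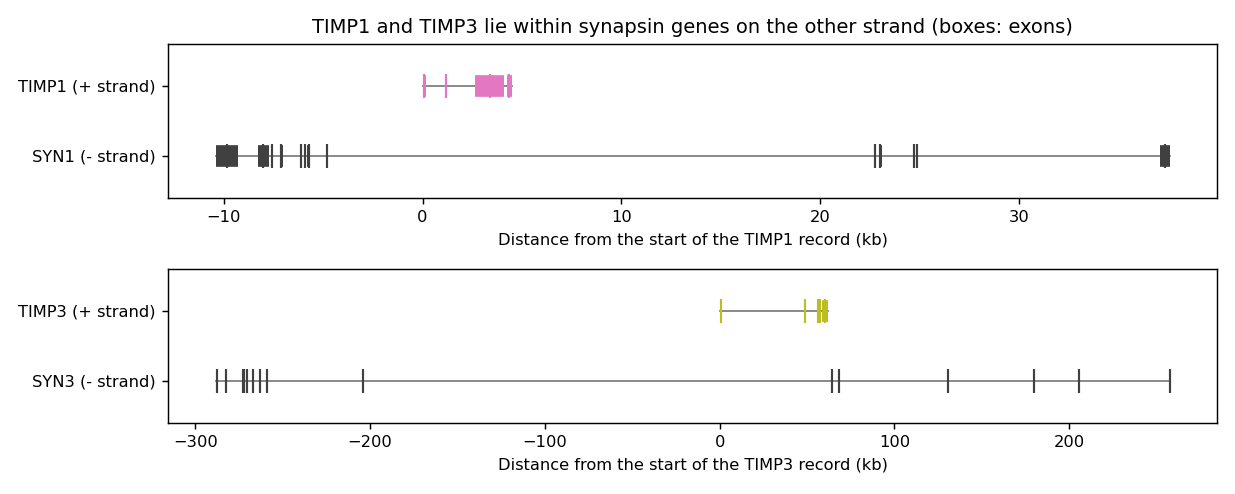
Exons (boxes) of the TIMP1 and TIMP3 records and of SYN1 and SYN3 on the other strand, drawn to scale as distance in kb from the start of the TIMP record; thin lines are introns, and an exon too short to see at this scale is a vertical line. No exon of a TIMP overlaps an exon of its synapsin host, with 0 shared exon bases.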

How the data were processed

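RNA-Seq libraries of 20 samples were assigned to days by their labels. The study's methods state that paired-end reads were mapped to hg19 by TopHat2 and assembled by Cufflinks, and that Cuffdiff2 gave expression levels with default options. Versions are not given in the sources used here. The deposited FPKM values are 1 per gene record and day, over all samples of that day. There were 0 columns for single samples, so depth is unknown and no test, error or interval could be computed; the planned limma fit could not be run. The second deposited table gives exon coordinates and names, which were used, and the authors' own comparisons of adjacent days (fold changes, test statistics, p-values and q-values), which were not.

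Here, changes were computed with Python 3.11.15 and pandas 2.3.3 as differences of log2(FPKM + 0.1), with a mean FPKM of at least 1 for counts over records, and tested on simulated data with known changes. Each symbol kept its coding record with the highest mean FPKM. Members, lists and rules were chosen with earlier results of these data known. Named genes were the 9 members, genes of the lists past 2-fold, partners of members, markers, overlapping records, and the nearest records in pattern (5 for PLAU, 2 for each other member). Genes named outside these rules, such as MMP16, were picked after their values were seen. Pseudocounts of 1 and 0.01, recentring, other filters, 1.5-fold and sums over records were tried. One gene of the inhibitor list is not reported here, and the counts of that list leave it out.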

Additional observations from a re-analysis of the deposited data

How the results depend on the processing

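No paired analysis was possible because the files hold 1 value per day, and leaving out a replicate was not possible for the same reason. Another pseudocount cannot reverse the direction of a change. The largest median taken off was -0.56, smaller in size than the limit of 1 for 2-fold. A change past 2-fold could thus not turn direction under either setting, and nothing is read from its sign staying the same. Recentring raised the number of members higher at day 18 than at day 0 from 0 to 1 (TIMP2), of inhibitors higher from 1 to 2, and of receptors and cofactors higher from 0 to 1 (LRP1). With 1.5-fold in place of 2-fold, the members higher at day 18 than at day 0 went from 0 to 1, those lower at day 1 from 3 to 5, those higher at day 2 than at day 1 from 0 to 1, those lower at day 4 than at day 2 from 2 to 4, those higher at day 5 than at day 4 from 0 to 1, and those at day 18 against day 11 from 0 to 2 lower and from 0 to 1 higher. The same change took proteases lower at day 18 from 7 to 11 and inhibitors higher from 1 to 2. The list counts in this section include the members, unlike those given with the lists above. The added inhibitor was TIMP2, both here and with recentring. Without a filter on low values 11 proteases were lower. The other counts stayed within 1.5 times. A pseudocount of 1 moved 7 changes of PLAU, PLAUR, MMP14 and TIMP3, all towards 0, such as PLAU from -6.83 to -5.37 and PLAUR from -4.93 to -3.17 between day 0 and day 18, and the members lower at day 11 than at day 5 went from 6 to 4, without PLAUR and TIMP3. MMP14 moved from -1.41 to -0.40 between day 0 and day 18, short of 2-fold. Each member has 1 record, so sums over records gave the same values. Unknown depth limits the values below 1 FPKM most, those of MMP14 on all days and of PLAU, PLAUR and TIMP3 on days 11 and 18.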

Other observations

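Records of long intergenic noncoding RNAs named after the members were read as well. The record linc-TIMP3 (chromosome 22, 32896547 to 32907788, plus strand) lies 753 bases from the end of SYN3, the host gene of TIMP3, on the other strand. Its FPKM values were 0.0300, 0.0492, 0.0791, 0.0733, 0.153, 0.249 and 0.388 in day order, from the first day to the last. SYN3 had 0.0247, 0.0375, 0.0430, 0.0588, 0.128, 0.186 and 0.357 on those days. Both had their highest value at day 18, while TIMP3 had its lowest there. The values of linc-TIMP3 and SYN3 are all below 0.4 FPKM, at unknown depth. The record linc-MMP2, upstream of MMP2, is listed at 0 on every day.

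MMP1, an interstitial collagenase below the filter on the mean, had 2.37, 0.431, 0.202, 0.0574, 0.0957, 0.00841 and 0.0107 in day order. RELN, which codes for reelin, a substrate of tissue-type activator in brain, had 0.0328 at day 0 and 0.978 at day 18. These genes were picked after their values were seen.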
